A study of Mus musculus with 31 samples.

Results

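The livers described here came from mice labelled as knockouts of Xbp1 (Xbp1 ko) and from their wild-type (WT) littermates. The samples were chosen by their labels: the 4 arrays of untreated Xbp1 ko mice and the 4 arrays of the WT littermates, 8 of the 31 arrays of the series, with all genes of the array described across them. Both groups were male C57BL/6 mice of 14 weeks in the fed state, and nothing else distinguishes them in the labels except the genotype. The labels do not give the deleted exon, the promoter of any Cre, or the liver cells in which Xbp1 was lost, and the 4 replicates of each group are called biological. Total RNA of whole liver was hybridised to a mouse Affymetrix array of perfect-match probes. Each value below is a probe set intensity on a linear scale, after normalization by RMA (robust multi-array average). The series set out to tell mRNAs that are direct targets of XBP1 from mRNAs that IRE1α degrades. The other arrays used here came from Xbp1 ko mice of 9 weeks given luciferase or IRE1 siRNA 8 days earlier (4 arrays each, male, C57BL/6), and from Ire1 ko mice (male, 14 weeks, strain labelled as mixed, 3 arrays untreated and 4 after tunicamycin) and their C57BL/6 WT littermates of 14 weeks, untreated (4 arrays) or 6 h after tunicamycin at 2 mg/kg (4 arrays).

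XBP1 switches on genes in the unfolded protein response, by which cells match the folding capacity of the endoplasmic reticulum (ER) to its load. IRE1α, encoded by Ern1, is an ER membrane sensor that cuts the Xbp1 mRNA so that, once rejoined, it encodes the active factor (XBP1s), and the same nuclease can cut other mRNAs, which are then degraded. In the liver XBP1 is known for its roles in the secretory apparatus and in the synthesis of lipids. Tunicamycin blocks N-glycosylation and thereby stresses the ER.

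Loss of Xbp1 was accompanied mainly by lower mRNA levels. Of 14008 genes tested, 290 were lower and 90 were higher in Xbp1 ko liver, which is 2.07% and 0.642% of the genes tested and 2.71% (380 genes) together (limma, Benjamini-Hochberg adjusted p under 0.05). The lower genes held part of the machinery that brings proteins into the ER, folds, glycosylates and exports them. They also held many genes of cholesterol synthesis and uptake, the Ces1 carboxylesterases, Dgat2, and several clotting factors and other plasma proteins. Most called genes, 161 of the lower and 74 of the higher ones, were in none of the 46 gene lists used here. The counts of each list below stand beside the 2.07% lower and 0.642% higher over all tested genes. Genes at least 2-fold lower numbered 106, and 17 of these were at least 4-fold lower. By contrast, 11 genes were at least 2-fold higher and 3 at least 4-fold higher, with Cav1 and Cdkn1a leading. Without WT replicate 1 or 3 or ko replicate 1 the 11 became 3, without ko replicate 3 or 4 they became 4, without WT replicate 4 or ko replicate 2 they became 5, and without WT replicate 2 they became 9. The median size of the log2 difference was 0.81 among the lower and 0.53 among the higher genes, against a median standard deviation (SD) of log2 values within a group of 0.10 to 0.15.

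In all 8 fits that left out 1 array each, 168 of the 290 lower and 27 of the 90 higher genes kept their call. Leaving out WT replicate 1 gave the lowest counts, 191 lower and 46 higher genes, or 237 together. Every called gene had no overlap between the 4 WT and the 4 ko arrays, which was true of 3.73% of all tested genes in the lower and 3.28% in the higher direction. The called genes were mostly well expressed. A mean intensity of 16 in at least 1 group was reached by 266 of the lower and 71 of the higher genes. By the same rule it was reached by 5636 of the 14008 tested genes. On each array, 19.8% to 21.6% of all probe sets, before any filter, read 16 or more.

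**Figure D1:**
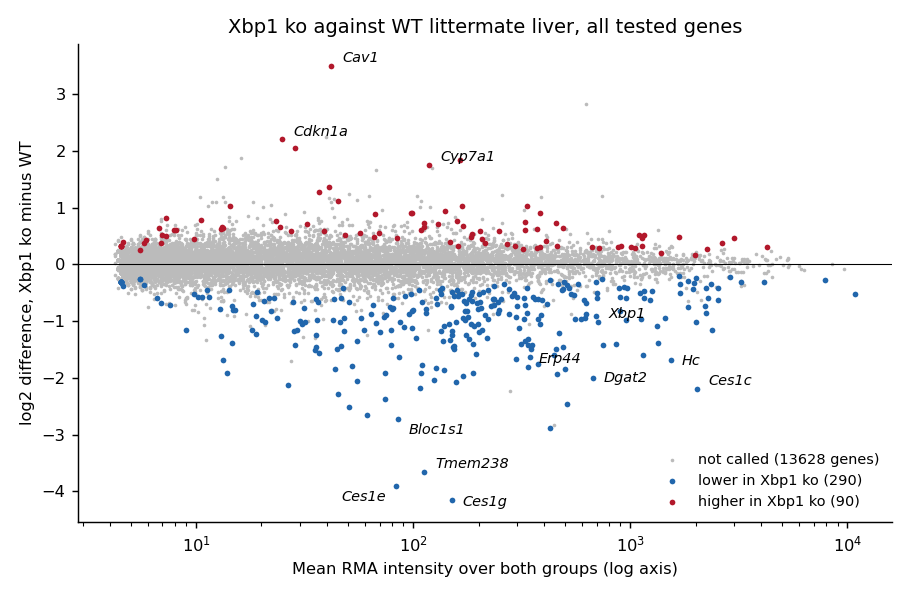
Each point is a gene, with its mean intensity over the 8 arrays on the horizontal log axis and its log2 difference between Xbp1 ko and WT on the vertical axis. Blue points are the 290 genes called lower, red points the 90 called higher and grey points the others. The lower genes reach down to -4.16 (Ces1g) and 266 of them reach a mean of 16 in a group, whereas most higher genes lie close to 0, with Cav1 at a fitted 3.50 above the rest.

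The 8 arrays were alike in distribution, with a median intensity of 5 on each, and 66.2% of the values were 6 or less, close to the lowest value of 3 in the table. Correlations of log2 values over all probe sets ran from 0.9856 to 0.992 within WT, from 0.9896 to 0.9907 within Xbp1 ko and from 0.9823 to 0.9883 between the groups. No pair of arrays held identical values. In whole liver, fewer cells of a type and less RNA per cell cannot be told apart.

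Xbp1 itself was measured at 912, 807, 1140 and 916 in the WT arrays and at 505, 404, 567 and 404 in the ko arrays. All 4 ko arrays lay below all WT arrays, and the log2 difference was -1.01 (SE 0.14, limma adjusted p = 0.00872), a fall to 0.498 of the WT mean. Signal was still present in the ko arrays, and the position of the probes relative to the deletion is not given in the sources used here. Ern1, the gene of IRE1α, was measured at 153, 129, 156 and 140 in WT and at 175, 198, 181 and 201 in Xbp1 ko. These values did not overlap, but the log2 difference of 0.39 did not pass the test (SE 0.09, limma adjusted p = 0.0624). Of the 91 tested genes nearest to Xbp1 on its chromosome, 1 was called lower (Hormad2) and 1 higher (Egfr). Over all tested genes 2.71% were called. The call of Egfr was lost in most fits without 1 array, as given below.

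The 2 largest falls were in Ces1g and Ces1e, and 5 of the 15 lowest genes were carboxylesterases of the Ces1 cluster, enzymes that hydrolyse lipid esters and drug esters. Ces1g, a liver esterase of lipoprotein metabolism, read 232, 314, 298 and 296 in WT and 13, 13, 17 and 22 in Xbp1 ko, a 17.5-fold lower mean (log2 difference -4.16, SE 0.19, limma adjusted p = 4.13e-05). Ces1e read 162, 196, 141 and 121 in WT against 7, 9, 8 and 21 in ko, a log2 difference of -3.91 (SE 0.34). Ces1d, which encodes a triacylglycerol hydrolase, fell from 791, 995, 597 and 629 to 59, 130, 102 and 126. Ces1f fell from 938, 964, 839 and 724 to 139, 151, 156 and 181. The most abundant of the cluster, Ces1c, a plasma esterase, fell from 3207, 3735, 3152 and 3213 to 567, 733, 850 and 791. In no Ces1 gene did a ko array reach the lowest WT array. The 5 Ces1 genes are consecutive among the tested genes of their chromosome and close in sequence, so part of the signal of one may come from another. Ces2a, of another branch of the family, also fell, from 850, 1215, 1168 and 1139 to 424, 527, 302 and 391 (log2 difference -1.43, SE 0.18). The other 7 of the 13 tested carboxylesterases did not pass the test, among them Ces3b, at 3101 to 3516 in WT and 2785 to 3135 in ko. Ces2a and Ces3b were singled out after their values were seen. The list was made with earlier results of these samples known, so its count is no independent evidence of its direction.

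Besides the Ces1 genes, the 15 lowest genes were of mixed function. Tmem238, a small membrane protein gene, fell from 230, 195, 209 and 200 in WT to 14, 15, 23 and 15 in Xbp1 ko (log2 difference -3.66, SE 0.16, limma adjusted p = 4.13e-05). Bloc1s1, which encodes a subunit of complexes that position endosomes and lysosomes and is a published substrate of IRE1 cleavage, fell from 144, 167, 150 and 128 to 21, 19, 26 and 23 (log2 difference -2.73, SE 0.12). Hgsnat, the lysosomal acetyltransferase of heparan sulfate breakdown, fell from 109, 110, 117 and 84 to 13, 11, 26 and 20. The spread within each group was small beside these differences. The log2 difference was -2.51 for Cnmd, the gene of chondromodulin, -2.37 for the Golgi sialyltransferase gene St3gal3, and -2.28 for Tex264, a receptor for the autophagy of the ER. It was -2.13 for Chid1, which encodes a chitinase-like protein, -2.08 for Pla1a, a secreted phospholipase, and -2.05 for the acid nuclease gene Dnase2b. Each of these calls held in all 8 fits without 1 array. The exception among the 15 was Cyp2c55, a cytochrome P450, which read 196, 154, 138 and 196 in WT and 70, 57, 27 and 18 in ko and lost its call in 7 of the 8 fits.

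The gene with the largest fitted rise was Cav1, which encodes the coat protein of caveolae, small pits of the cell surface. It read 8, 6, 7 and 6 in WT, close to the floor of the array, and 100, 61, 64 and 84 in Xbp1 ko (log2 difference 3.50, SE 0.18, limma adjusted p = 7.48e-05). With WT values so close to the array median of 5, the size of this rise is not well measured, while the groups are far apart. Of 10 tested genes of caveolae, Cav1 was the only one called. Cdkn1a, the gene of the cell cycle inhibitor p21, read 7, 10, 7 and 9 in WT and 29, 19, 59 and 60 in ko (log2 difference 2.20, SE 0.38, limma adjusted p = 0.0209). The adhesion receptor gene Adgrv1 read 11, 11, 10 and 8 in WT and 20, 50, 34 and 84 in ko, the widest relative spread among the ko arrays of the 15. Vnn1, a pantetheinase, rose from 105, 121, 42 and 44 to 274, 286, 224 and 215. Cyp7a1, the rate-limiting enzyme of the classic route of bile acid synthesis, rose from 63, 73, 66 and 25 to 169, 127, 224 and 200, with WT replicate 4 well below the other WT arrays. These groups did not overlap, but their ko arrays varied more than those of most lower genes.

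The other genes among the 15 highest rose by 0.90 to 1.37 on the log2 scale. They were Fam124a (log2 difference 1.37), the tropomyosin gene Tpm2 (1.27), the microtubule regulator Stmn1 (1.12), Taf2 of the general transcription factor TFIID (1.03), Tkfc, a kinase of fructose metabolism (1.02), Ddah1, which breaks down methylated arginine (1.02), the kinase gene Dapk1 (0.91) and Dusp6, a phosphatase of MAP kinases (0.90). Both glycerol-3-phosphate dehydrogenases were among them. The mitochondrial Gpd2 rose from 85, 94, 92 and 113 to 176, 203, 159 and 200 (log2 difference 0.94, SE 0.12), and the cytosolic Gpd1 from 251, 332, 220 and 264 to 465, 546, 418 and 561 (0.91, SE 0.14). Of the 15, the calls of Cav1, Ddah1, Gpd2 and Dapk1 held without any 1 array, and those of Cdkn1a, Adgrv1, Vnn1, Cyp7a1, Tpm2, Taf2 and Tkfc were each lost in 7 of the 8 fits.

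**Figure D2:**
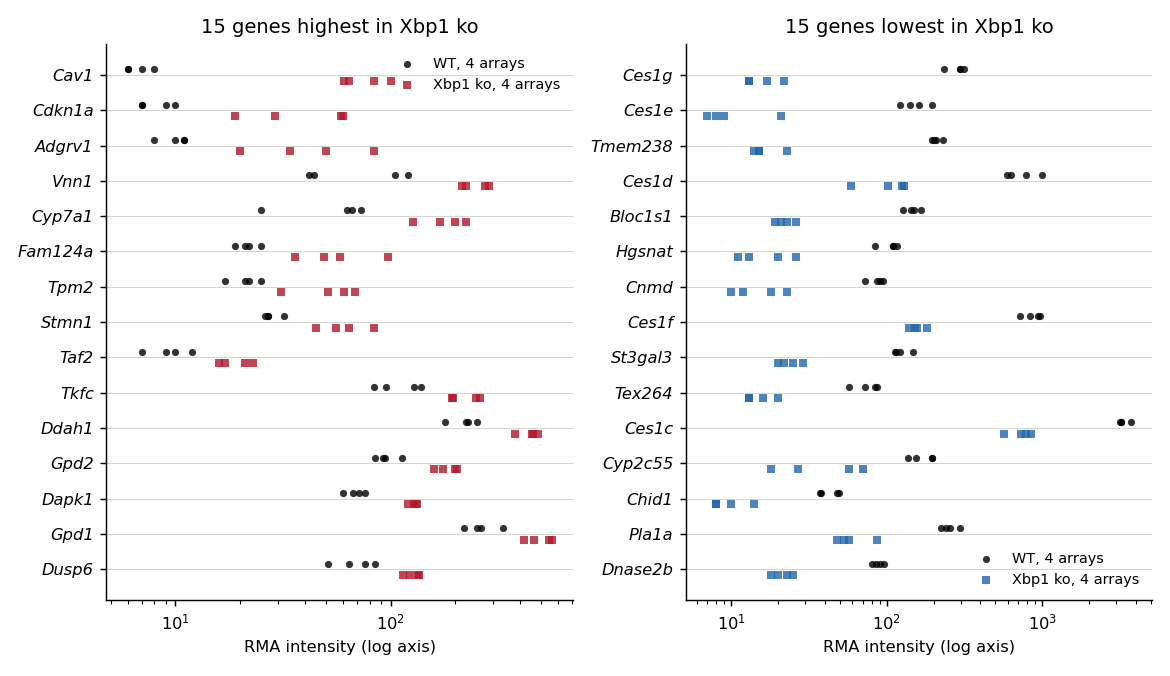
Intensities of the 15 genes with the largest rise (left) and the largest fall (right) among called genes with a mean of at least 16 in 1 group, on log axes. Black circles are the 4 WT arrays and coloured squares the 4 Xbp1 ko arrays. Only genes without overlap between them were eligible. The ko arrays of Cav1 lie at 61 to 100 against 6 to 8 in WT, and those of Ces1g at 13 to 22 against 232 to 314.

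Genes that carry proteins into the ER fell broadly. Of 21 tested genes of ER translocation, 11 were lower and 0 higher, against 2.07% lower over all tested genes, and the median log2 difference of the list was -0.49 against 0.01 over all. Sec61b, a subunit of the translocation channel, read 462, 476, 475 and 464 in WT and 160, 182, 219 and 179 in Xbp1 ko (log2 difference -1.35, SE 0.09, limma adjusted p = 0.000214). Sec61a1, the pore of that channel, fell from 789, 826, 874 and 634 to 339, 417, 470 and 383. The signal peptidase, which trims proteins on entry, was lower in its subunits Sec11c (83, 64, 62 and 64 against 23, 26, 27 and 24) and Spcs2 (log2 difference -0.96, SE 0.07). Tram1, which assists the channel, fell by 0.97 on the log2 scale. The WT arrays of all these genes lay above all ko arrays.

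Among the ER chaperones and folding enzymes, 12 of 33 tested genes were lower and 0 higher, with a median of -0.47. Creld2, a disulfide-related ER protein, read 192, 223, 270 and 118 in WT and 50, 49, 68 and 51 in Xbp1 ko (log2 difference -1.83, SE 0.25, limma adjusted p = 0.00714). Erp44, which retains unfinished proteins in the early secretory pathway, fell from 500, 518, 534 and 545 to 129, 152, 160 and 159. Sdf2l1, a partner of ER chaperones, fell from 179, 167, 169 and 156 to 54, 34, 70 and 45. The co-chaperone Dnajb9 (log2 difference -1.49) and the nucleotide exchange factor Hyou1 (-1.41) fell to a similar extent. P4hb, a disulfide isomerase and the brightest of the called members named here, read 1968, 1874, 1922 and 1814 in WT and 1006, 902, 1066 and 955 in ko (log2 difference -0.95, SE 0.06). Hspa5, the gene of BiP, read 998, 1046, 1110 and 812 in WT and 781, 721, 934 and 935 in ko, a log2 difference of -0.23 that did not pass (limma adjusted p = 0.466), and that of Hsp90b1 was -0.02 and did not pass either. P4hb, Hspa5 and Hsp90b1 were singled out after their values were seen.

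N-linked glycans are attached and read in the same compartment, and 12 of the 37 tested genes of N-glycosylation were lower, 0 higher (median -0.34). Uggt1, the sensor that marks misfolded glycoproteins, fell from 48, 53, 51 and 55 to 23, 15, 22 and 17 (log2 difference -1.45, SE 0.15). Several subunits of the oligosaccharyltransferase, which transfers the glycan, fell: Rpn1 by 1.35, Ostc by 1.25, Ddost by 1.15 and the catalytic subunit Stt3a by 1.02 on the log2 scale. In Ddost the arrays read 266, 264, 302 and 312 in WT against 140, 114, 152 and 113 in ko. Of 26 tested genes of ER-associated degradation, which disposes of misfolded proteins, 4 were lower: Edem2 (log2 difference -1.18), Edem1 (-0.87), Selenos (-0.70) and Os9 (-0.66). The count was 2 in each of the fits without WT replicate 1 or 2 or any 1 ko replicate.

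Of 52 tested genes of vesicle transport, which make COPII and COPI coats and cargo receptors, 17 were lower and 0 higher, with a median of -0.24. The cargo receptor subunit Tmed3 read 65, 82, 90 and 37 in WT and 15, 14, 26 and 20 in Xbp1 ko (log2 difference -1.84, SE 0.31, limma adjusted p = 0.0203). Sec23b, a coat subunit of COPII vesicles, fell by 0.99, the cargo receptor gene Ergic3 by 0.90, the tether gene Uso1 by 0.75 and the mannose lectin gene Lman2 by 0.73. The count depended on each array: it was 5 without ko replicate 1, 6 without WT replicate 1 or 3 or ko replicate 4, 7 without ko replicate 2, 9 without WT replicate 2, 10 without ko replicate 3 and 12 without WT replicate 4.

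XBP1 and the related factor ATF6 are known to act through the ER stress response elements ERSE and ERSE-II. Promoters of the tested genes, from 250 bases before to 50 after the start in the RefSeq table for GRCm38.p6, were searched on both strands for ERSE (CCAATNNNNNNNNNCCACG) and ERSE-II (ATTGGNCCACG). A promoter was listed for 241 of the 290 lower, 66 of the 90 higher and 11218 of all tested genes. ERSE was found in 3 of the 241 lower genes (1.24%, against 0.160% of tested genes and 0.137% of all genes with a promoter listed). ERSE-II was found in another 3 (1.24%, against 0.0713% and 0.0444%). Neither was found in a higher gene. The 6 promoters with a match are shown from 150 bases before to 30 after the start, because they belong to the lower genes in which a whole ER stress element was found. The fixed letters of the element are in capitals, and each sequence is written 5′ to 3′ on the strand of its gene.
Creld2: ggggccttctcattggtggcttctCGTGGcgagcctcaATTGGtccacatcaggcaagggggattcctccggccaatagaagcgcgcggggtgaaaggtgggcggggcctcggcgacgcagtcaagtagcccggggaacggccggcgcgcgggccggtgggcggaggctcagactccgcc
Dnajc3: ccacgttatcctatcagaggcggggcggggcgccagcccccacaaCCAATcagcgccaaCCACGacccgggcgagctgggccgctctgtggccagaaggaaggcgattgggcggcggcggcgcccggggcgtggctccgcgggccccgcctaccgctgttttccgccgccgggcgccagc
Pdia6: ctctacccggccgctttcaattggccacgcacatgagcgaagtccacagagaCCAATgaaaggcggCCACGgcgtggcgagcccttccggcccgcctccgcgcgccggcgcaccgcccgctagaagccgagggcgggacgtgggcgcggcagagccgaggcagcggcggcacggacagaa
Dnajb11: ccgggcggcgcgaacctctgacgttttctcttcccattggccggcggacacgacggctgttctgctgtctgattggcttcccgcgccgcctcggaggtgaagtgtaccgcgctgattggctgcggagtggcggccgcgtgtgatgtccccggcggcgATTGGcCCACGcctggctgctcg
Krtcap2: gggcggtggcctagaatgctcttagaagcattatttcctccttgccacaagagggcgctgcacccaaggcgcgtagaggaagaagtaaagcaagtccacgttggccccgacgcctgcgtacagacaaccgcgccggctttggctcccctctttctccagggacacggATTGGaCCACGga
Nucb1: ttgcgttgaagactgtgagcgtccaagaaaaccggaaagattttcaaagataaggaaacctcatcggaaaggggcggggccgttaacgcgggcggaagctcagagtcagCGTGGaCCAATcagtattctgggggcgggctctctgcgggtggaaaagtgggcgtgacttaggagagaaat
The first 3 hold ERSE and the last 3 ERSE-II. They lie at chr15:88819496-88819675 (plus strand, Creld2), chr14:118937782-118937961 (plus, Dnajc3), chr12:17266439-17266618 (plus, Pdia6), chr16:22857695-22857874 (plus, Dnajb11), chr3:89246323-89246502 (plus, Krtcap2) and chr7:45510379-45510558 (minus, Nucb1). In Creld2, Dnajc3 and Pdia6 the element begins 126, 105 and 98 bases before the start, in Nucb1 41 bases before it, and in Dnajb11 and Krtcap2 within the first 30 bases after it. The log2 differences in Xbp1 ko were -1.83 for Creld2, -0.91 for Dnajc3, whose product inhibits PERK and assists folding, -0.69 for the disulfide isomerase gene Pdia6, -0.92 for the co-chaperone gene Dnajb11, -0.72 for Krtcap2 of the oligosaccharyltransferase and -0.56 for the calcium-binding Golgi protein gene Nucb1. ERSE was also found in the promoters of 15 tested genes that were not called, among them Hspa5, Hsp90b1, Calr and Canx.

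The shorter core GCCACGT can overlap the other elements. It was found in 9.54% of the lower, 9.09% of the higher and 4.19% of the tested genes with a promoter. Over all genes with a promoter it was found in 2.95%. The UPRE (TGACGTGG) was found in 5 of the 241 lower genes (2.07%) and 1 of the 66 higher ones (1.52%). Among genes with a promoter it was found in 0.954% of the tested and 0.714% of all. A match is a string of letters and no shown binding site, and a promoter without one may hold a site elsewhere.

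Of 15 tested sensors and transducers of the response, 2 were lower, Xbp1 and Ppp1r15b, which encodes a subunit of the phosphatase that reverses the PERK signal. Ppp1r15b read 235, 193, 220 and 198 in WT and 77, 80, 80 and 98 in Xbp1 ko (log2 difference -1.34, SE 0.10, limma adjusted p = 0.00043). Without WT replicate 4 the count of this list was 4. None of 35 tested targets of the PERK and ATF4 branch was called by limma, with 5 higher and 0 lower at an unadjusted p under 0.05 and a median of 0.11. The leading one was Slc6a9, a glycine transporter, at 67, 83, 52 and 50 in WT and 89, 105, 106 and 95 in ko (adjusted p = 0.0942).

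**Figure D3:**
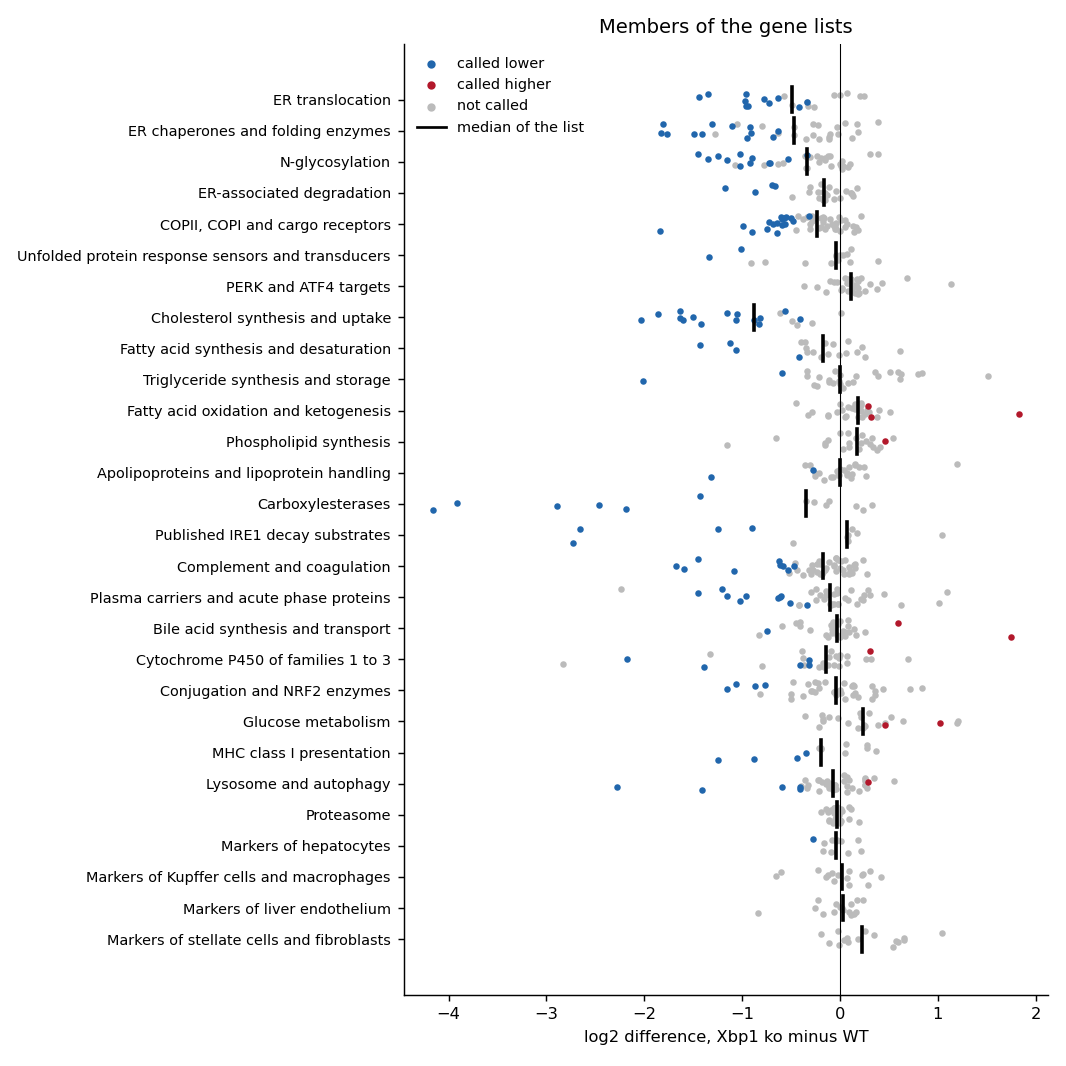
Log2 differences between Xbp1 ko and WT for the tested members of selected gene lists, not all 46, with one point a gene. Points are blue where called lower, red where called higher and grey otherwise. A black bar marks the median of the list. Cholesterol synthesis (median -0.88), ER translocation (-0.49) and the chaperones (-0.47) lie furthest to the left, while the medians of the proteasome (-0.03) and of the markers of liver cell types (-0.04 to 0.22) lie closer to 0.

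Of the lists described, cholesterol synthesis had the highest share of lower genes. Of 21 tested genes of cholesterol synthesis and uptake, 15 were lower and 0 higher, and 20 had a negative log2 difference (median -0.88). Cyp51, the lanosterol demethylase, read 176, 218, 209 and 194 in WT and 56, 30, 73 and 46 in Xbp1 ko (log2 difference -2.03, SE 0.25, limma adjusted p = 0.00398). Sqle, the squalene epoxidase that controls flux into sterols, fell from 152, 234, 209 and 262 to 74, 27, 90 and 63. Nsdhl, which acts further along the pathway, fell from 440, 526, 485 and 630 to 216, 109, 211 and 150, and Dhcr7, the last step of one branch, from 89, 134, 120 and 175 to 46, 25, 56 and 41. Ko replicate 2 was the lowest ko array in each of these genes. The call of Sqle was lost in 6 and that of Dhcr7 in 5 of the 8 fits without 1 array. Fdps, which makes farnesyl diphosphate, fell by 1.60 on the log2 scale. Srebf2, the gene of the factor that drives this pathway, read 21, 23, 22 and 30 in WT and 19, 15, 18 and 16 in ko and did not pass (limma adjusted p = 0.154). It was singled out after its values were seen.

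Of 20 tested genes of fatty acid synthesis and desaturation, 4 were lower and 0 higher (median -0.17). These were both front-end desaturases of polyunsaturated fatty acids, Fads1 (489, 642, 523 and 414 in WT, 219, 167, 189 and 188 in ko, log2 difference -1.43, SE 0.14) and Fads2 (-1.06, SE 0.16), the acetyl-CoA synthetase gene Acss2 (-1.12, SE 0.16) and the citrate carrier gene Slc25a1 (-0.42, SE 0.07). The central enzymes of the pathway were not called: Fasn read 192, 371, 215 and 219 in WT and 248, 306, 117 and 250 in ko, and Scd1 had a log2 difference of -0.40 (limma adjusted p = 0.537). Both were singled out after their values were seen. Without WT replicate 1 the list held 2 lower genes.

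In triglyceride synthesis and storage, 2 of 27 tested genes were lower. Dgat2, which catalyses the last step of triglyceride synthesis, read 1069, 1097, 1106 and 1038 in WT and 203, 282, 279 and 318 in Xbp1 ko (log2 difference -2.01, SE 0.13, limma adjusted p = 0.000151), a 3.98-fold lower mean with almost no spread in WT. Agpat3, an acyltransferase, fell by 0.59. The median of the list was 0.00. Of 26 tested genes of apolipoproteins and lipoprotein handling, Lrp1, an endocytic receptor of remnant lipoproteins, fell from 272, 240, 270 and 245 to 118, 90, 104 and 101 (log2 difference -1.32, SE 0.09), and Apoa1, the main protein of HDL, by 0.28 from 8332 to 9407 in WT to 6566 to 7482 in ko, a call lost in each of the 8 fits without 1 array. Of 29 tested genes of fatty acid oxidation, 3 were higher, 0 lower and 26 not called, against 0.642% higher over all, and at an unadjusted p under 0.05 the list held 12 higher and 3 lower genes. The 3 were Vnn1, given above, and, with smaller rises, Hadhb (log2 difference 0.32), a subunit of the trifunctional protein, and the dienoyl-CoA reductase gene Decr1 (0.29). In phospholipid synthesis 1 of 22, the choline kinase gene Chkb, was higher (0.46). The count for oxidation was 1 in each fit without WT replicate 1 or 3 or ko replicate 2, 3 or 4, and the call of Chkb was lost in 6 of the 8 fits.

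Secreted plasma proteins of the hepatocyte were lower in part. Of 47 tested genes of complement and coagulation 9 were lower and 0 higher (median -0.17). Hc, the gene of complement C5, read 2357, 2168, 2543 and 2297 in WT and 773, 605, 852 and 716 in Xbp1 ko (log2 difference -1.68, SE 0.10, limma adjusted p = 0.00014). Proc, the anticoagulant protein C, fell from 1719, 1665, 1790 and 1674 to 504, 553, 612 and 606. F7, which starts the extrinsic clotting route, fell by 1.45, the C1 inhibitor gene Serping1 by 1.08 and F2, the gene of prothrombin, by 0.62 on the log2 scale. Of 42 tested plasma carriers and acute phase proteins, 10 were lower and 0 higher, among them Afm (log2 difference -1.45), a vitamin E binding protein, the cytokine receptor gene Lifr (-1.21), Azgp1 (-1.16), Itih4 (-1.02) and Hgfac (-0.96), the activator of hepatocyte growth factor. Another bright probe set of Lifr overlapped between the groups, at 356, 250, 448 and 263 in WT and 284, 242, 420 and 240 in ko. Its log2 difference was -0.15 and did not pass (limma adjusted p = 0.813 over probe sets). Azgp1 read 3352, 3188, 3239 and 3322 in WT and 1489, 1255, 1554 and 1605 in ko. The most abundant plasma proteins had small differences that did not pass: Alb -0.09 and Ttr -0.03, both singled out after their values were seen.

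A list of 11 mRNAs published as substrates of IRE1 decay in other systems was measured in full. Of these 4 were lower, beside 2.07% of all tested genes. They were Bloc1s1, Hgsnat, Tapbp, which loads peptides onto MHC class I molecules, and Ergic3. Tapbp read 225, 197, 216 and 211 in WT and 105, 86, 90 and 78 in Xbp1 ko (log2 difference -1.25, SE 0.10, limma adjusted p = 0.000502). Only 6 of the 11 reached a mean of 16, which includes the 4 lower ones, and the median of the list was 0.07. MHC class I presentation held 4 lower genes of 12 tested, beside the same 2.07%. They were Tapbp, H2-T23 (log2 difference -0.88), H2-Q10 (-0.44) and H2-K1 (-0.35). The calls of MHC class I went down to 2 without WT replicate 1.

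Of 31 tested genes of bile acid synthesis and transport, Cyp7a1 and the bile acid receptor gene Nr1h4 (208, 218, 177 and 189 against 277, 310, 289 and 314, log2 difference 0.59, SE 0.08) were higher and Slc27a5, which activates bile acids for conjugation, was lower (-0.75, SE 0.06). Of 28 tested cytochromes P450 of families 1 to 3, 5 were lower and 1 higher. Cyp1a2, an enzyme of drug and caffeine oxidation, fell from 1971, 1778, 2322 and 1659 to 859, 718, 722 and 649 (log2 difference -1.39, SE 0.12). Smaller falls were seen in Cyp2a5 (-0.41), Cyp2e1 (-0.32) and Cyp2c50 (-0.32), and a rise in Cyp3a11 (0.31). Of 39 tested conjugating and NRF2-dependent enzymes, the glutathione transferases Gstm2 (-1.16), Gstt2 (-1.06) and Gstt3 (-0.87) and the sulfotransferase gene Sult1d1 (-0.77) were lower. In glucose metabolism 2 of 23 were higher, Tkfc and Fbp1, an enzyme of gluconeogenesis, which rose from 2418, 2644, 2700 and 2399 to 3513, 3440, 3594 and 3428 (log2 difference 0.46, SE 0.05, limma adjusted p = 0.00154), and the median was 0.23. The lower calls went from 4 to 1 among the conjugating enzymes without WT replicate 1 and to 2 without ko replicate 2 or 3. Among the cytochromes P450 they went from 5 to 3 without WT replicate 1 or 3 or ko replicate 2.

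Of 19 tested periportal genes of amino acid metabolism limma called 0, with 3 higher and 4 lower at an unadjusted p under 0.05. The 2 lower of 18 tested pericentral genes were Cyp1a2 and Cyp2e1. Of 27 tested transcription factors and nuclear receptors of hepatocytes, Nr1h4 was the only one called. Of 21 tested genes of the growth hormone response, Egfr was higher (333, 398, 459 and 344 against 587, 588, 689 and 522, log2 difference 0.64), a call lost in 7 of the 8 fits without 1 array. Another bright probe set of Egfr read 356, 302, 455 and 433 in WT and 305, 313, 357 and 313 in ko, in the opposite direction (log2 difference -0.25). Of 18 clock genes, 23 cell cycle genes and 27 interferon-induced genes tested, limma called 0 in each, with 3, 3 and 1 at an unadjusted p under 0.05. Dusp6 was the only one called of 19 immediate early genes and Cdkn1a the only one of 21 p53 targets and genes of growth arrest, whose median was 0.18.

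Of 44 tested genes of lysosomes and autophagy, 5 were lower and 1 higher (median -0.07). Lamp1, an abundant protein of the lysosomal membrane, fell from 1306, 1205, 1279 and 1216 to 416, 432, 513 and 535 (log2 difference -1.41, SE 0.09, limma adjusted p = 0.000148), and Tex264 fell as given above. The falls of the lysosomal hydrolases Naglu (-0.59), Ctsb (-0.41) and Gaa (-0.41) were smaller, and Scarb2, the transporter of a lysosomal enzyme, rose by 0.29. Without WT replicate 1 or ko replicate 4, 3 genes of the list were lower, and the call of Scarb2 was lost in 7 of the 8 fits. In the respiratory chain, 1 of 34 tested genes was lower: Ndufa9 of complex I, which read 474, 467, 444 and 441 in WT and 177, 145, 173 and 197 in Xbp1 ko (log2 difference -1.41, SE 0.09). Sdha of complex II was higher (0.20, SE 0.04, a call lost in 7 of the 8 fits), and the median was 0.07. Of 27 cytosolic ribosomal proteins, 1 was lower (Rpl10, -0.33, a call lost in 6 of the 8 fits). Of 29 proteasome genes limma called 0, with 1 higher and 1 lower at an unadjusted p under 0.05.

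Markers of hepatocytes were present at high levels in every array, with a sum over 11 genes of 41268 to 45055 in WT and 39317 to 41859 in Xbp1 ko, and 1 of the 11, Apoa1, was called. Of the markers of other cells, limma called 0 of 16 for Kupffer cells and macrophages, 0 of 16 for liver endothelium, 0 of 16 for stellate cells and fibroblasts, 0 of 7 for cholangiocytes, 0 of 8 for neutrophils, 0 of 4 for erythroid cells, 0 of 4 for adipocytes and 0 of 6 for pancreatic acinar cells. At an unadjusted p under 0.05 these lists held 1 higher and 1 lower, 0 and 1, 3 and 0, 1 and 0, 0 and 0, 2 and 0, 0 and 0, and 0 and 1 genes, in the same order. Of 11 lymphocyte markers, Cd79b was called at 5 in each WT array and 6 or 7 in the ko arrays, near the floor. Stellate markers had a median of 0.22, and their summed level ran from 1050 to 1322 in WT and from 1232 to 1601 in ko. Cav1 is also expressed in endothelium, whose summed markers ran from 1033 to 1232 in WT and from 1109 to 1236 in ko. Whether the number of any of these cells differed was not tested.

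Of the 380 called genes, 97 had another probe set at a mean of 16 or more. In 96 of these all such probe sets had the same direction, the exception being Egfr. Direction here is the sign alone, and Lifr, with a log2 difference of -0.15 in its other bright probe set, is among the 96. In 50 of the 97 another probe set was itself called in that direction, and 0 were called in the opposite one.

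The untreated Ire1 ko mice show which of these genes were also lower without the sensor that activates XBP1. Their strain is labelled as mixed, against C57BL/6 in their WT littermates, so a strain effect and a genotype effect cannot be told apart. Ern1 itself read 148 to 153 in Ire1 ko and 121 to 203 in those littermates, so its probe set does not check the deletion. The comparisons of Xbp1 ko and Ire1 ko share no arrays. Of the 290 genes lower in Xbp1 ko, 62 were also lower in Ire1 ko, which is 21.4% of the Xbp1 list and 47.7% of the 130 genes lower in Ire1 ko that were tested in both, whereas 0.863% of all 15172 genes tested in the Ire1 experiment were lower there. The difference between the 2 knockout effects was tested in a fit of the 15 untreated arrays and was called for 92 genes, 0.597% of 15414 tested. Of the 290 lower genes, 75 (25.9%) had a more negative effect of Xbp1 than of Ire1 by this test, and 1 gene was in both groups. This test uses again the 8 arrays on which the 290 were called lower, which favours such calls among them, so the 25.9% is a description and is not read against the 0.597%. For the remaining 154 neither test passed.

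The genes lower in both knockouts included many of the secretory apparatus: all 11 of the lower genes of ER translocation, 9 of the 12 chaperones, 10 of the 12 genes of N-glycosylation and 11 of the 17 genes of vesicle coats and cargo receptors. Sec61b had a log2 difference of -1.57 (SE 0.13, limma adjusted p = 8.36e-06) in Ire1 ko beside -1.35 in Xbp1 ko, and Tmed3 had -1.81 beside -1.84. The test of the difference gave 0.22 for Sec61b (adjusted p = 0.801) and -0.03 for Tmed3 (adjusted p = 0.988). Chid1 of the 15 lowest genes also belonged here (-1.48 in Ire1 ko, limma adjusted p = 2.63e-05). Of the 15 lower cholesterol genes, Fdps, Mvk and Sqle were lower in Ire1 ko as well, and for none did the knockout effects differ by the test.

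The other group, with a more negative effect of Xbp1 than of Ire1, contained the 5 Ces1 genes, Tmem238, St3gal3, Tex264, Bloc1s1, Hgsnat, Tapbp, Dgat2, Fads1, Lrp1, Lamp1, Ndufa9, Ppp1r15b, Cyp1a2, Cyp2e1, H2-T23, 6 of the 9 lower genes of complement and coagulation (F2, F5, F7, Hc, Proc and Serping1) and 4 of the 10 lower plasma carriers (Afm, Azgp1, Hgfac and Itih4). In Ire1 ko, Dgat2 had a log2 difference of 0.06 (limma adjusted p = 0.944) and Bloc1s1 0.34 (adjusted p = 0.605). The difference between the knockout effects was -2.07 for Dgat2 (adjusted p = 1.99e-07) and -3.07 for Bloc1s1 (adjusted p = 9.43e-09). The 1 chaperone gene in this group was Erp44, with a difference of -1.42 (adjusted p = 1.48e-05). The XBP1 core GCCACGT was found in 12 of the 52 promoters listed for genes lower in both knockouts (23.1%) and in 1 of the 56 listed for the other group (1.79%), beside 4.19% of tested genes.

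**Figure D4:**
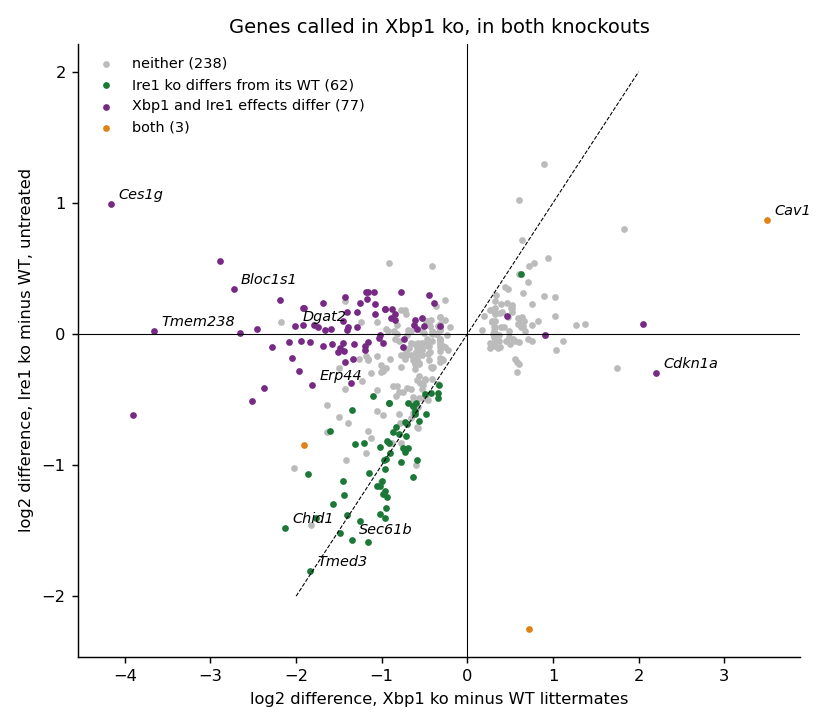
Log2 differences of the 380 genes called in Xbp1 ko, in Xbp1 ko on the horizontal axis and in untreated Ire1 ko on the vertical axis, with equality as a dashed line. Green genes differed from WT in Ire1 ko, purple genes had knockout effects that differed from each other, orange genes passed both tests and grey genes neither. Most green genes run along the dashed line, with Sec61b at -1.35 and -1.57. Most purple ones lie close to the horizontal line at 0, with Dgat2 at -2.01 and 0.06. The colours were set by both tests, so these positions follow in part from the choice of colour.

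Among the 90 genes higher in Xbp1 ko, 2 were higher and 1 was lower in Ire1 ko, and for 6 (6.67%) the effect of Xbp1 was the more positive by the test of the difference, which uses the same Xbp1 arrays again. Cav1 was higher in both, at 10 to 12 in Ire1 ko against 5 to 7 in its WT littermates (log2 difference 0.87, limma adjusted p = 0.00299), and the effects differed by 2.63 (adjusted p = 3.83e-06). For Cdkn1a the effects differed by 2.50 (adjusted p = 0.00161), for Adgrv1 by 1.98 (adjusted p = 0.0381), for Dapk1 by 0.91 (adjusted p = 0.0181) and for Fbp1 by 0.32 (adjusted p = 0.0334).

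Tunicamycin in WT mice was measured on arrays that share none with the Xbp1 comparison, though its untreated controls are those of the Ire1 ko comparison. After it, 18.5% of tested genes were higher and 17.6% lower. Of the 290 genes lower in Xbp1 ko, 93 (32.1%) rose and 139 (47.9%) fell after tunicamycin, beside 20.0% and 19.3% of the genes tested in both. In the secretory lists 18 of 21 genes of ER translocation, 29 of 33 chaperones, 25 of 37 genes of N-glycosylation and 40 of 52 of the vesicle coats and cargo receptors were higher. Creld2 rose by a log2 difference of 4.09 (limma adjusted p = 6.86e-08) and Hyou1 by 1.93. Of the carboxylesterases 8 of 13 were lower and 0 higher, of complement and coagulation 30 of 47 were lower, and of fatty acid oxidation 24 of 29. Dgat2 had a difference of -0.03 after tunicamycin (adjusted p = 0.895).

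The siRNA arrays of Xbp1 ko mice carry labels that the target gene goes against. Ern1 read 18 to 35 on the 4 arrays labelled luciferase siRNA and 169 to 236 on the 4 arrays labelled IRE1 siRNA, a log2 difference of 3.11 for IRE1 minus luciferase as labelled (limma adjusted p = 0.000754), while the untreated Xbp1 ko arrays read 175 to 201. The labels may thus be exchanged, which the sources used here do not settle. All directions below follow the labels, and with the labels exchanged every sign turns: a gene given as lower on the arrays labelled IRE1 siRNA is a gene that was higher on the arrays where Ern1 was low. On the arrays labelled IRE1 siRNA, 160 genes, 1.14% of 14030 tested, were lower than on those labelled luciferase. Of the 289 genes lower in Xbp1 ko that were tested there, 103 (35.6%) were lower on the arrays labelled IRE1 siRNA and 0 higher. Among all 13314 genes tested in both, 154 (1.16%) were lower on those arrays, and the 103 make up 66.9% of these. By Ern1 level in place of label, the 103 genes were higher on the arrays with low Ern1. Of the 75 genes with a more negative effect of Xbp1 than of Ire1, 65 (86.7%) were among them, with a median log2 difference of -1.18 as labelled, that is, a higher level where Ern1 was low. Of the 62 genes lower in both knockouts, 5 (8.06%) were, with a median of 0.02. The siRNA arrays share no sample with either knockout comparison.

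As labelled, and with the opposite sign if the labels are exchanged, Dgat2 differed by -1.98 (limma adjusted p = 0.000754) between the arrays labelled IRE1 siRNA and luciferase siRNA, Bloc1s1 by -2.36 (adjusted p = 0.000751), Lamp1 by -1.29 (adjusted p = 0.000751) and Proc by -1.39 (adjusted p = 0.000754). Sec61b differed by 0.27 (adjusted p = 0.123), Creld2 by 0.13 (adjusted p = 0.691) and Dnajb9 by 0.02, which did not pass either. Of the 21 tested cholesterol genes 2 were lower as labelled, Fdps being one (-1.50, adjusted p = 0.0311), and the median was -0.69. Cdkn1a, high in Xbp1 ko mice of 14 weeks at 19 to 60, read 5 to 9 on all 8 siRNA arrays, whose mice were 9 weeks old and injected, so age and injection differ along with the level. Cav1 read 17 to 106 on those 8 arrays, overlapping the 61 to 100 of the untreated Xbp1 ko arrays.

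**Figure D5:**
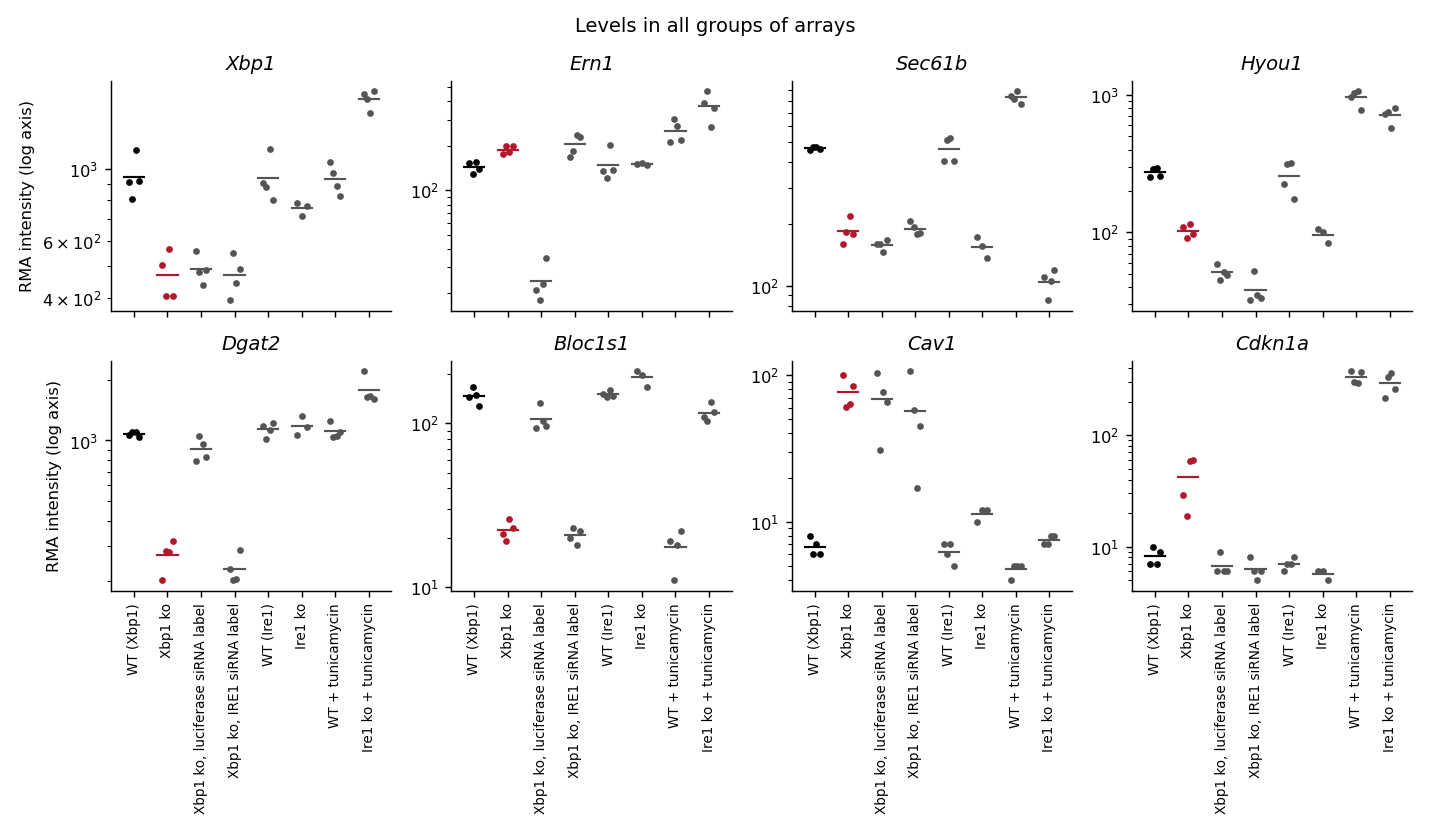
Intensities of 8 genes in all 8 groups of arrays, on log axes, with one point an array and a line at the group mean. Black marks the WT littermates and red the untreated Xbp1 ko mice, and the siRNA groups are named as labelled. Sec61b and Hyou1 are low in Xbp1 ko and Ire1 ko and high after tunicamycin in WT, whereas Dgat2 is low only in untreated Xbp1 ko (203 to 318) and on the arrays labelled IRE1 siRNA, where Ern1 is high.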

How the data were processed

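Total RNA of mouse liver was hybridised to 31 Affymetrix arrays in 8 groups, of which the 8 arrays of Xbp1 ko and its WT littermates are the subject here. The authors deposited 1 table of linear probe set intensities, made with RMA and the affy package per the submitters' processing notes. Its values are whole numbers of 3 or more. Rounding makes values near this floor coarse, and RMA with its quantile step removes differences in total mRNA between arrays. Precision is limited by how many arrays a group has. Of 45037 probe sets, 28898 had exactly 1 gene symbol in the platform annotation, 551 had several and 15588 were not listed. Each gene was represented by its brightest probe set, on average over the 31 arrays (17097 genes, of which 16937 symbols matched the RefSeq gene table, older symbols included).

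From the deposited intensities, log2 values were fitted with lmFit and eBayes with an intensity trend (limma 3.58.1, R 4.3.3), after a filter that kept genes lying above the 30th percentile on 3 or more of the arrays fitted. P-values are two-sided, adjusted by Benjamini-Hochberg over all tested genes, and called under 0.05. Xbp1 ko was compared with its littermates in a fit of those 8 arrays. The difference between the Xbp1 and Ire1 effects used the 15 untreated arrays, Ire1 ko and tunicamycin shared a fit of 15 arrays, and the siRNA groups a fit of 8. The script was tested on simulated data. The labels call the replicates biological and the WT mice littermates, but do not say which animals shared a litter. P-values thus measure the spread between these samples, with no account taken of litters. Named were Xbp1, Ern1, the 15 highest and 15 lowest called genes whose arrays did not overlap and whose mean reached 16 in a group, up to 5 called members of a list in its main direction and up to 2 in the other, and up to 2 by unadjusted p where none was called. Others are marked as chosen after their values were seen. Gene lists (46) came from general knowledge, and the samples, lists and genes were chosen with earlier results of these data known. Promoters came from the RefSeq table for GRCm38.p6. Alternatives were the filter, an offset, normalization, the probe set rule, the arrays in the fit, the eBayes settings, a replicate block and leaving out each array.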

Additional observations from a re-analysis of the deposited data

Results flagged for a closer look

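In 18 of 244 groups of 4 arrays of the named genes, 1 array stood apart from the other 3 by Dixon's criterion at the 95% level, which chance alone meets in about 1 group in 20. Among the WT arrays, replicate 4 was low in Cyp7a1 at 25 (others 63 to 73), in Fads2 at 159 (206 to 216), in Serping1 at 1562 (1876 to 1894) and in Tfrc at 28 (83 to 91). WT replicate 1 was high in Sec11c at 83 (others 62 to 64) and in Lman2 at 314 (275 to 276). WT replicate 2 was high in Ces1c at 3735 (others 3152 to 3213), in Gldc at 143 (114 to 116) and in Scarb2 at 680 (631 to 632). WT replicate 3 was high in Sec23b at 326 (others 190 to 208).

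Among the Xbp1 ko arrays, replicate 3 was high in Tmem238 at 23 (others 14 to 15), in Creld2 at 68 (49 to 51) and in Afm at 332 (238 to 247), and low in Edem1 at 63 (68 to 69) and in Alas2 at 343 (396 to 403). Ko replicate 4 was high in Ppp1r15b at 98 (others 77 to 80), ko replicate 1 was high in Serping1 at 1004 (793 to 818), and ko replicate 2 was low in Gstm2 at 37 (53 in each of the others). Called genes had no overlap between the groups, so in them the array that stood apart lay outside the opposite group by construction. It also lay outside in the uncalled Gldc and Tfrc, but not in Alas2, whose WT arrays read 313 to 370.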

How the results depend on the processing

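Every named gene kept its direction under each alternative run, except Lipe and Stat2, neither of which was called. Lipe had a log2 difference of 0.02 with probe sets averaged, and Stat2 of 0.20 with its probe set chosen within the fit. The calls were less stable than the directions. Of the 108 named genes called, 41 lost their call with the replicate number as a block. With no filter on dim genes 14 did, and 14 with probe sets averaged. In every fit without 1 array, 67 of the 108 kept their call. The count of genes at least 2-fold higher (11) was 4 with no filter on dim genes, 26 among genes at 16 or more, 4 with log2(intensity + 16), 29 with arrays set to a common median, 6 with probe sets averaged and 27 in 1 fit over 31 arrays. Among genes at 16 or more, 196 were higher (90), 402 differed in the siRNA arrays (251) and 166 were lower both in Xbp1 ko and in the arrays labelled IRE1 siRNA (103). That last count was 171 with a common median and 157 with robust eBayes, which also gave 179 higher genes and 382 in the siRNA arrays. A fit over 31 arrays gave 571 called genes (380), 176 higher, 101 lower in both knockouts (62) and 144 lower in Xbp1 ko and higher after tunicamycin (93). Leaving out each array in turn gave 237 to 373 called, 46 to 78 higher, 191 to 305 lower and 3 to 9 at least 2-fold higher genes, and 95 (without Ire1 ko replicate 3) to 147 genes called in Ire1 ko (143). Lower calls made up 76.3% of calls as deposited, 72.2% after a second quantile normalization and 72.6% with a common median. The share was smaller among genes at 16 or more (371 of 567 calls) and with robust eBayes (370 of 549). It was also smaller in 1 fit over 31 arrays (395 of 571). It was larger with no filter on dim genes (265 of 334) or with probe sets averaged (263 of 328). With the replicate number as a block, 197 genes were called, 37 higher, 160 lower and 6 at least 2-fold higher, 61 in the difference between knockout effects (92), 43 in the siRNA arrays, 31 in both knockouts, 44 also higher after tunicamycin, 19 also lower in the arrays labelled IRE1 siRNA and 48 also more negative than in Ire1 ko (75). Deviations of same-numbered WT and ko arrays correlated at 0.031, 0.184, 0.285 and 0.082, 2 of them under 0.1. WT replicates 2, 3 and 4 each correlated best with the ko array of their own number and WT replicate 1 with ko replicate 2 (0.118). This is a hint of pairing from the data. The labels say that the WT mice are littermates but not which animals share a litter. The numbers were therefore not taken to pair the animals. The causes of these moves were not tested, apart from the fewer or more genes or arrays that a setting uses by construction. With values rounded and 66.2% of them at 6 or less, dim genes are measured coarsely, and 19 of the higher and 24 of the lower calls were of genes under a mean of 16 in both groups.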

Other observations

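Several large differences did not pass the test and were chosen here after their values were seen. Mt1, a metallothionein that binds zinc, read 32, 150, 123 and 396 in WT and 2106, 348, 1161 and 707 in Xbp1 ko, a log2 difference of 2.83 with overlapping arrays (limma adjusted p = 0.154). Cyp2b10, a drug-induced cytochrome P450, read 753, 1127, 388 and 666 in WT and 398, 139, 21 and 74 in ko (log2 difference -2.83, limma adjusted p = 0.162). Hamp2, a relative of the iron hormone hepcidin, read 418, 854, 277 and 263 against 98, 45, 51 and 232 (-2.24, adjusted p = 0.112), with no overlap. Tff3, a trefoil factor, read 7, 7, 19 and 13 against 26, 21, 143 and 80 (2.25, adjusted p = 0.163). G6pc, the last enzyme of glucose release, read 412, 614, 219 and 622 against 838, 1269, 818 and 1120 (1.21, adjusted p = 0.145), also with no overlap.

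Genes of the reticulon-type receptors for autophagy of the ER, also chosen after their values were seen, differed among themselves. Retreg3 had a log2 difference of -1.91 (limma adjusted p = 0.00113) and Retreg2 of -0.70 (adjusted p = 0.00315), while Retreg1 had -0.11 (adjusted p = 0.527). Tex2, a lipid transfer protein of the ER, had a log2 difference of -1.97 (adjusted p = 7.69e-05).

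Probe sets with no gene name here were tested in the same way: of 10176, 32 were higher and 75 lower in Xbp1 ko. Of all 33152 probe sets tested, named or not, 120 were higher and 414 lower. The unnamed one with the largest rise read 16 to 36 in WT and 204 to 327 in ko (log2 difference 3.16, limma adjusted p = 0.00204). That with the largest fall read 155 to 221 in WT and 13 to 44 in ko (-3.22, limma adjusted p = 0.00590).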
